A study of Homo sapiens with 18 samples.

Results

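PUS7L, IRAK4 and TWF1 are 3 genes that follow each other on human chromosome 12. They were chosen from the 27130 genes of the count tables because PUS7L and IRAK4 were lost together in both ZNF263 knockout clones of H9 embryonic stem cells, and TWF1 is the next gene along. The choice therefore rests on the H9 knockout levels, so those levels are given as a description with no test. The same genes in the H1 clone, and TWF1 between the H9 clones, were not part of the choice and were tested.

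Polyadenylated RNA was sequenced from H1 (WA01) and H9 (WA09), established human embryonic stem cell lines, and from clones in which Cas9 had been used to delete ZNF263, which encodes a transcription factor with zinc fingers. The submitters' stated question is the part ZNF263 plays in controlling pluripotency. The replicated groups, with 3 libraries each, were H9 clone 9-1, H9 clone 9-D and H1 clone 1-10, all homozygous knockouts, and the unedited H9 and H1 lines, called WT. A further 3 H1 libraries without replicates came from clone 1-10, from clone 1-5, a heterozygous knockout, and from H1 WT. Each knockout group is 1 clone, so in H1 the knockout and the clone cannot be told apart. In H9 the labels do not say whether clones 9-1 and 9-D arose independently, and both are compared with the unedited line. Another change shared by both clones therefore cannot be told apart from the knockout. The labels do not say whether libraries of a group came from separate cultures, so p-values measure only the spread between these libraries, which may be technical.

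Levels are given as CPM, read counts per M counts of the library, scaled by the trimmed mean of M values (TMM) over all 18 libraries, with read counts where they are few. Library totals ran from 9.66 M to 21 M counts, so that 3 counts, the limit a count of 0 allows, stand for 0.144 to 0.315 CPM. ZNF263 RNA itself was still present. It measured 33.9 to 37.6 CPM in the H9 clone libraries, against 39.4 to 44.1 CPM in H9 WT, and 32.5 to 36.1 CPM in clone 1-10, against 39.6 to 41.9 CPM in H1 WT. The single libraries held 33.8 CPM (clone 1-10), 32.2 CPM (clone 1-5) and 39.6 CPM in WT. Which part of ZNF263 was deleted is not stated, so these levels do not check the knockout. The embryonic stem cell markers POU5F1, NANOG, SOX2, LIN28A and DNMT3B were expressed in all 18 libraries, with a lowest level of 42.4 CPM, for NANOG.

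PUS7L encodes a homologue of PUS7, an enzyme that converts uridine to pseudouridine in RNA. IRAK4 encodes the kinase that joins the adaptor MYD88 at activated Toll-like and interleukin-1 receptors, phosphorylates IRAK1 and passes the signal towards NF-kappa-B. TWF1 encodes twinfilin, a protein of the actin depolymerising factor family that binds actin monomers and acts on filament ends.

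PUS7L lies on the minus strand and IRAK4 on the plus strand, head to head. Their annotated starts are 127 bp apart in GENCODE 29, with 126 bases between the genes and 0 shared exon bases. IRAK4 and TWF1 run tail to tail, with 4179 bases between them. Whether reads were counted by strand is not given in the sources used here. The stretch between the PUS7L and IRAK4 starts is shown because both genes were lost together, and the stretch before TWF1 because TWF1, the next gene, was not lost. Both are from RefSeq promoter windows of GRCh38.p14, each on the strand of the gene named, and capitals mark CG dinucleotides. PUS7L has no window of its own in that table, so 2 of the 3 genes matched one. The first sequence is chr12:43758818-43758943 on the plus strand, and the second is chr12:43806318-43806567 on the minus strand, ending at the base before the TWF1 start.
PUS7L and IRAK4: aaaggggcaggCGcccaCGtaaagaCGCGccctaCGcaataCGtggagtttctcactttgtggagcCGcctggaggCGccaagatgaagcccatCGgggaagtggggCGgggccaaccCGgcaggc
TWF1: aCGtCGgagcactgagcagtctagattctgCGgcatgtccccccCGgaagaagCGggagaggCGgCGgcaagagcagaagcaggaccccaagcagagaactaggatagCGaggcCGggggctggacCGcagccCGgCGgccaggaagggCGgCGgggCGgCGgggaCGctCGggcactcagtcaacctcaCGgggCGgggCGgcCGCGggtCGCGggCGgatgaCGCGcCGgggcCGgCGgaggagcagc
The stretch between PUS7L and IRAK4 holds 11 CG in 126 bases and is 65.1% G or C. The 250 bases before TWF1 hold 31 CG and are 73.6% G or C. Over the full windows of 300 bases, the IRAK4 window had 28 CG and the TWF1 window 37 CG, against a median of 14.0 over all windows in the table. The letters GGAGGA, the unit of a repeat known as the ZNF263 motif, were searched on both strands. The IRAK4 window, which spans the PUS7L start, held 0 matches. The TWF1 window held 1, on its forward strand at base 240, where its first base is also the G of a CG. The same letters stand in 36.6% of all 35116 windows. A match is a description of the letters and not a binding site, and these windows were set on gene starts, not on any measured binding.

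PUS7L RNA was all but missing from the 6 libraries of both H9 clones. Clone 9-1 had 0, 1 and 0 counts of PUS7L (0, 0.0480 and 0 CPM in replicates 1, 2 and 3), and clone 9-D also had 0, 1 and 0 counts (0, 0.0704 and 0 CPM), against 123, 80 and 90 counts in H9 WT (7.89, 5.51 and 5.54 CPM). Every H9 clone library was under the level of 3 counts, and no clone library came near the lowest WT library. Together the clones had 2 counts of PUS7L, against 293 counts in H9 WT, a ratio of scaled counts 307-fold lower with an exact 95% counting interval of 84.3 to 2550. Taken alone, clone 9-1 was 309-fold lower than H9 WT (interval 55.0 to 12237) and clone 9-D was 306-fold lower (interval 54.5 to 12124). In bulk RNA, fewer expressing cells and less RNA per cell cannot be told apart. The 2 counts of the clones amount to 0.325% of the H9 WT level.

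IRAK4 showed the same pattern in the same 6 libraries. Clone 9-1 had 0 counts of IRAK4 in each replicate and clone 9-D had 0, 1 and 0 counts (0, 0.0704 and 0 CPM), against 39, 41 and 56 counts in H9 WT (2.501, 2.82 and 3.45 CPM). Again every clone library was under the level of 3 counts and all 3 WT libraries were above it. Taking 3 counts over the group as the limit, clone 9-1 was at least 47.8-fold lower than H9 WT in IRAK4. The exact 95% counting interval of its ratio to H9 WT, 0 to 0.0261, sets a looser limit. Clone 9-D, with 1 count against 136 counts, was 142-fold lower (exact 95% counting interval 25.1 to 5649). With so few counts, a difference in IRAK4 between the clones was not detectable at this depth.

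TWF1, the third gene in the row, stayed at a moderate level in the same cells. Clone 9-1 had 30.1, 34.3 and 33.8 CPM of TWF1 and clone 9-D had 33.9, 30.6 and 29.4 CPM, against 26.1, 29.9 and 31.5 CPM in H9 WT. The ranges overlapped, and the clone mean of 32.0 ± 2.20 CPM (SD, n = 6) stood 1.10-fold above the H9 WT mean of 29.1 ± 2.76 CPM (SD, n = 3). Of the 3 genes, PUS7L and IRAK4 thus had clone and WT libraries that did not overlap, both lower, in a comparison where 15.9% of 15411 tested genes were called lower by edgeR at an adjusted p below 0.05. That share counts calls by a test, and the share of genes without overlap was not counted. Since PUS7L and IRAK4 were also chosen by this contrast, nothing is read from it. The authors' deposited table for this comparison gives log2 fold changes of -8.14 for PUS7L, -7.51 for IRAK4 and 0.14 for TWF1.

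**Figure D1:**
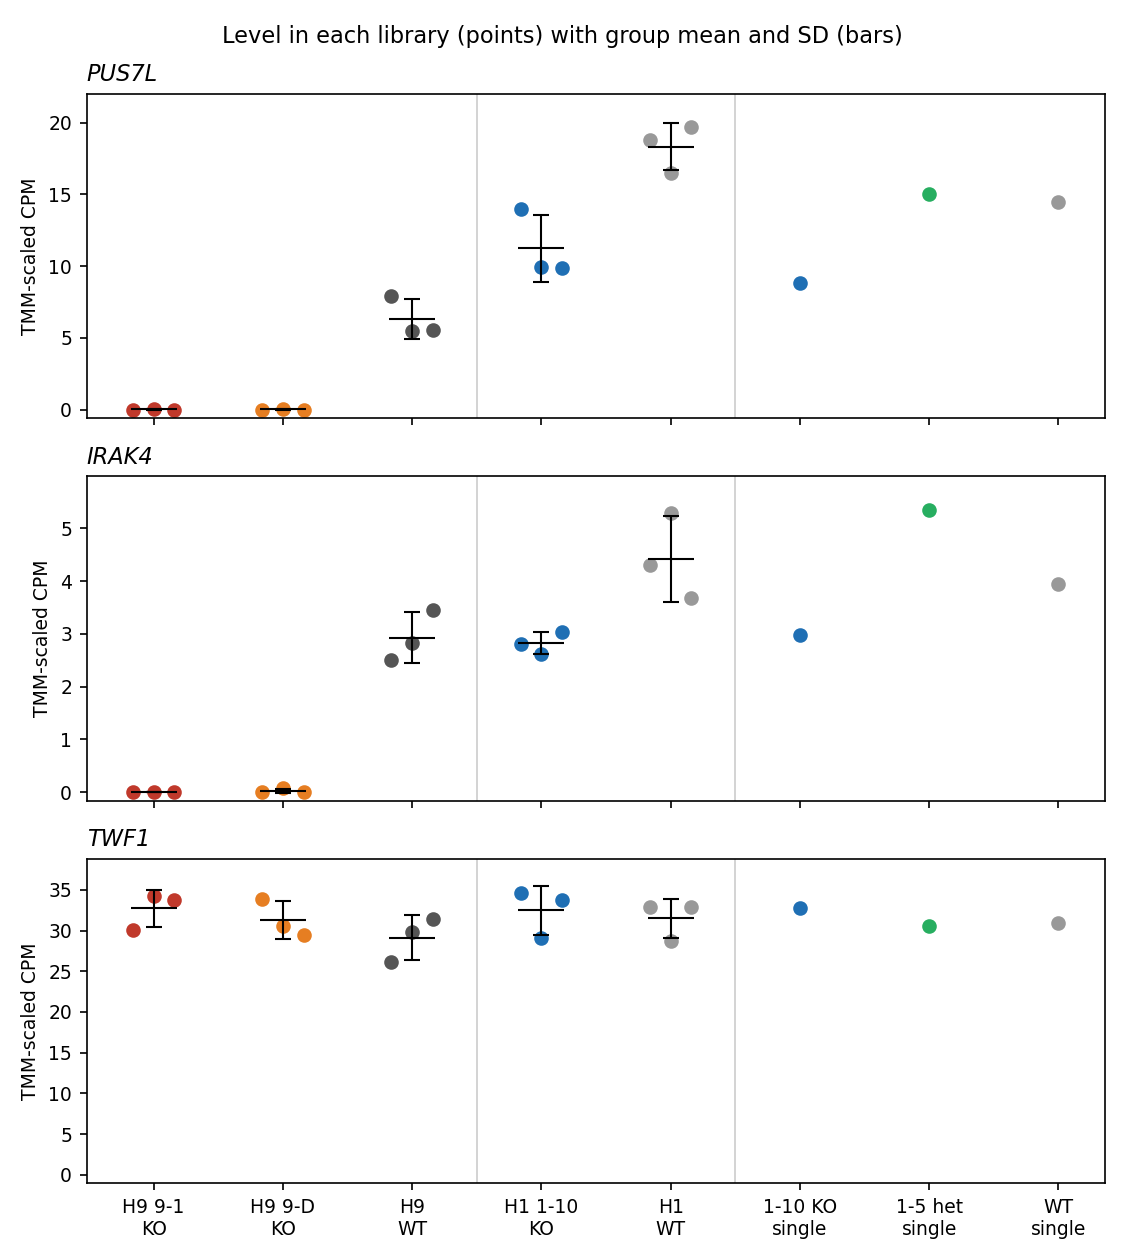
TMM-scaled CPM of PUS7L, IRAK4 and TWF1 in each of the 18 libraries (points), with the mean and SD of each group of 3 (bars), by clone and line. PUS7L and IRAK4 sit at 0 or under 0.1 CPM in all 6 H9 clone libraries, while TWF1 lies between 26.1 and 34.7 CPM in all 18.

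Between the H9 clones, TWF1 did not pass the test. Clone 9-D averaged 31.3 ± 2.31 CPM and clone 9-1 averaged 32.7 ± 2.28 CPM (SD, n = 3 each), which is -0.08 on the log2 scale (SE 0.0818, Benjamini-Hochberg adjusted p = 0.906 in edgeR's quasi-likelihood test). In that comparison 0.305% of 15411 genes were called. PUS7L and IRAK4 had at most 1 count per library in either clone, which leaves nothing to compare between them.

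PUS7L RNA was also lower in the homozygous H1 clone, by a far smaller step. Clone 1-10 had 14.0, 9.95 and 9.86 CPM of PUS7L (218, 171 and 94 counts), against 18.8, 16.5 and 19.7 CPM in H1 WT (236, 256 and 273 counts). The highest clone library lay below the lowest WT library. The share of all genes without overlap in this comparison was not counted, so nothing is read from it. PUS7L averaged 11.3 ± 2.34 CPM in clone 1-10 and 18.3 ± 1.64 CPM in H1 WT (SD, n = 3 each). It fell by 0.70 on the log2 scale (SE 0.122, Benjamini-Hochberg adjusted p = 0.00015 in edgeR's quasi-likelihood test), and the call was kept under all 11 alternative settings tried.

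IRAK4 in clone 1-10 had 2.82, 2.62 and 3.04 CPM (44, 45 and 29 counts), against 4.31, 5.29 and 3.67 CPM in H1 WT (54, 82 and 51 counts). All 3 clone libraries lay below all 3 WT libraries, by a narrow margin between 3.04 CPM and 3.67 CPM. As for PUS7L, nothing is read from this lack of overlap. The means were 2.83 ± 0.212 CPM in clone 1-10 and 4.42 ± 0.812 CPM in H1 WT (SD, n = 3 each). On the log2 scale IRAK4 fell by 0.68 (SE 0.207, Benjamini-Hochberg adjusted p = 0.0281 in edgeR's quasi-likelihood test), of nearly the same size as that of PUS7L but with a larger error. The call did not hold in DESeq2 (adjusted p = 0.126), in a fit of all 15 replicated libraries (adjusted p = 0.0538), or in edgeR fits without H1 WT replicate 1 (0.0502), without H1 WT replicate 2 (0.159), without clone replicate 1 (0.0809) or without clone replicate 2 (0.0746). Over all alternatives the adjusted p of IRAK4 ran from 0.0164 to 0.159, and its log2 fold change stayed between -0.80 and -0.52. The authors' deposited table gives IRAK4 an adjusted p of 0.0548, and PUS7L one of 0.000111.

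TWF1 in clone 1-10 had 34.7, 29.04 and 33.8 CPM, against 32.9, 28.7 and 32.9 CPM in H1 WT. The libraries of both groups were interleaved. On the log2 scale TWF1 differed by 0.03 (SE 0.0856, Benjamini-Hochberg adjusted p = 0.861 in edgeR's quasi-likelihood test), and its sign turned, to -0.03 without H1 WT replicate 2 and -0.02 without clone replicate 1, with an adjusted p between 0.397 and 0.984 over all alternatives. By summed scaled counts the ratio of clone 1-10 to H1 WT was 1.03 for TWF1, with a counting interval of 0.951 to 1.11. So 2 of the 3 genes, PUS7L and IRAK4, were called lower in clone 1-10, in a comparison where 7.25% of 14897 tested genes were called lower and 5.01% higher.

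The single H1 libraries, which have no replicates and so no test, add the heterozygous clone. PUS7L had 8.85 CPM in clone 1-10 (116 counts) and 15.03 CPM in clone 1-5 (194 counts), against 14.5 CPM in WT (162 counts). Its ratio to the single WT library was 0.610 in clone 1-10 (exact 95% counting interval 0.477 to 0.779) and 1.04 in clone 1-5 (interval 0.837 to 1.29). Clone 1-10 was thus low in PUS7L by about the same factor as in the replicated libraries, where the ratio was 0.625 (interval 0.557 to 0.702), and clone 1-5 was close to WT.

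IRAK4 had 2.97 CPM in the single clone 1-10 library (39 counts) and 5.35 CPM in clone 1-5 (69 counts), against 3.94 CPM in WT (44 counts). Both intervals include 1, at 0.478 to 1.19 for clone 1-10 and 0.917 to 2.03 for clone 1-5, so no difference in IRAK4 was detectable at this depth. TWF1 had 32.8 CPM in clone 1-10, 30.6 CPM in clone 1-5 and 31.0 CPM in WT, a spread no wider than that within the replicated groups. All of these intervals cover counting error only.

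**Figure D2:**
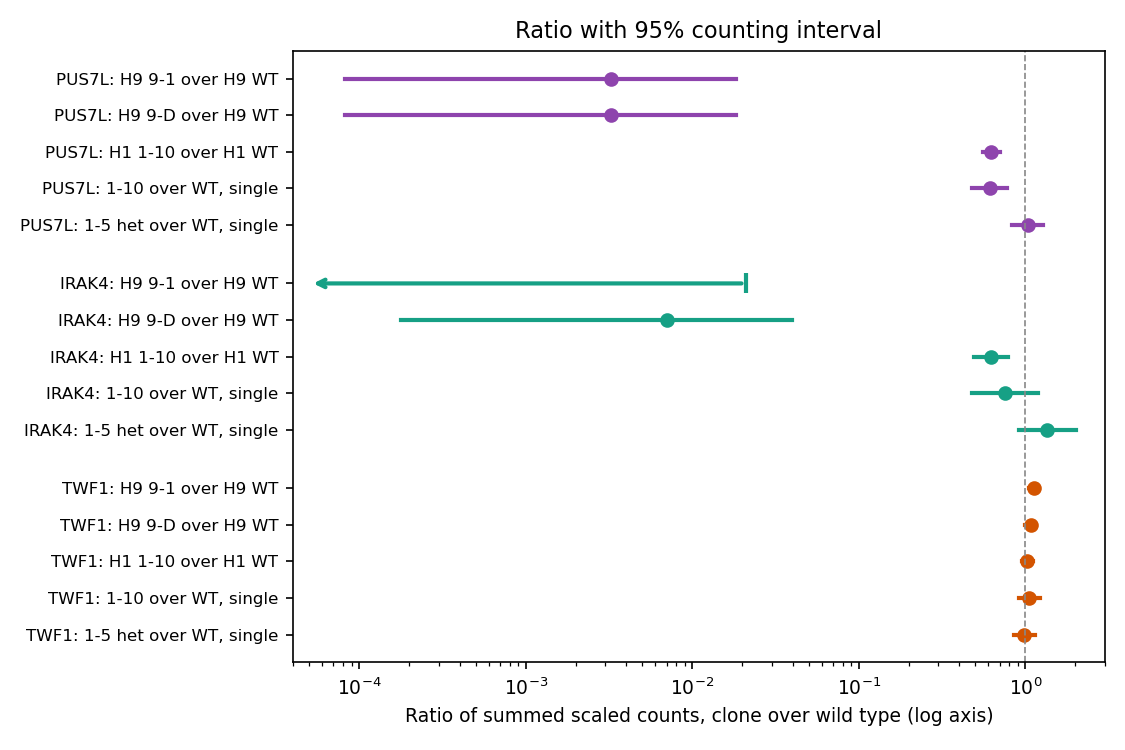
Ratio of summed scaled counts of each clone to its own WT (log axis), with exact 95% counting intervals; the arrow starts at the limit that 3 counts over the group give for IRAK4 in clone 9-1, which had 0 counts. The H9 clone ratios of PUS7L and IRAK4 drawn as points lie at or below 0.00704, the H1 clone 1-10 ratios between 0.610 and 0.755, and those of TWF1 between 0.989 and 1.13.

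The unedited lines themselves had different levels of PUS7L and IRAK4, and as the genes were chosen on H9 levels this too is a description. H9 WT averaged 6.31 ± 1.36 CPM of PUS7L, against 18.3 CPM in H1 WT, a ratio of 0.346 (counting interval 0.302 to 0.397). For IRAK4, H9 WT averaged 2.92 ± 0.482 CPM, against 4.42 CPM in H1 WT, a ratio of 0.658 (interval 0.524 to 0.825). TWF1 was at 0.930 of the H1 WT level in H9 WT (interval 0.861 to 1.00). Neither PUS7L nor IRAK4 overlapped between the replicated WT lines, whereas TWF1 did. The single H1 WT library held 14.5 CPM of PUS7L, below the replicated H1 WT libraries (lowest 16.5 CPM). Its IRAK4, at 3.94 CPM, lay within their range. The share of all genes without overlap between the lines was not counted, so nothing is read from overlap here or in the order below. The intervals cover counting error only.

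Ordered from high to low, PUS7L ran from H1 WT (18.3 CPM) through H1 clone 1-10 (11.3 CPM) and H9 WT (6.31 CPM) to the H9 clones, and no neighbours in that order overlapped apart from the clones 9-1 and 9-D. IRAK4 ran from H1 WT (4.42 CPM) to H9 WT (2.92 CPM) and H1 clone 1-10 (2.83 CPM), which overlapped each other, and then to the H9 clones. TWF1 had group means from 29.1 to 32.7 CPM, and every group of 3 overlapped every other.

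Within a library the pair can be read as IRAK4 counts per PUS7L count. This ratio depends on the lengths of both genes, so only its change between groups is informative. It was 0.244 in clone 1-10 (0.202, 0.263 and 0.309 in replicates 1, 2 and 3) and 0.244 in H1 WT (0.229, 0.320 and 0.187). In H1 both genes were therefore lower in the clone by the same factor within the spread of the libraries. In H9 WT the ratio was 0.464 (0.317, 0.513 and 0.622), above the replicated H1 libraries except that H9 WT replicate 1, at 0.317, lay just under H1 WT replicate 2, at 0.320. The single libraries gave 0.336 in clone 1-10, 0.356 in clone 1-5 and 0.272 in WT. With at most 1 count of each gene, the H9 clones give no ratio.

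**Figure D3:**
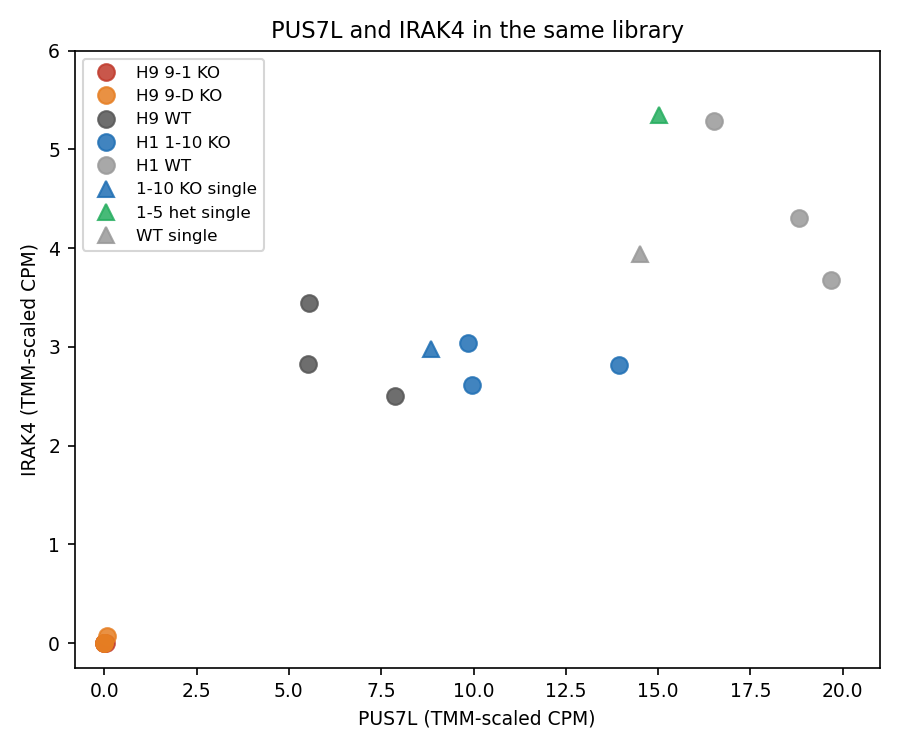
TMM-scaled CPM of IRAK4 (vertical) against PUS7L (horizontal), 1 point per library, circles for replicated groups and triangles for single libraries. The 6 H9 clone libraries lie at the origin, apart from the 3 H9 WT libraries at 5.51 to 7.89 CPM of PUS7L and 2.501 to 3.45 CPM of IRAK4.

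Markers of other cell types differed in direction within the neural list and within the fibroblast and feeder list. Of the neural markers, TUBB3, a neuronal tubulin, averaged 419 ± 21.5 CPM in the H9 clones (SD, n = 6) and 268 ± 22.1 CPM in H9 WT (SD, n = 3). The other 3 had lower means in the clones. MAP2 averaged 17.6 CPM in the H9 clones and 30.9 CPM in H9 WT, PAX6 averaged 1.17 CPM in the clones and 1.73 CPM in WT, and SOX1 averaged 0.182 CPM in the clones and 0.456 CPM in WT. With TUBB3 as the most abundant, the sum of the list ran from 420.2 to 475 CPM in the H9 clones and from 275 to 322 CPM in H9 WT. Of the fibroblast and feeder markers, COL1A1 averaged 246 CPM in the H9 clones and 162 CPM in H9 WT, whereas COL1A2 averaged 185 CPM in the clones and 219 CPM in WT, and PDGFRB averaged 15.6 CPM in the clones and 27.01 CPM in WT. Their sum ran from 383 to 494 CPM in the clones and from 383 to 453 CPM in H9 WT, with the defining markers DCN and LUM at 0 or under 0.2 CPM in every replicated library. Endoderm markers (SOX17, FOXA2, GATA6) summed to 1.90 to 5.31 CPM in the H9 clones and 0.8004 to 1.47 CPM in H9 WT. Each of them had a higher mean in the clones. FOXA2 averaged 1.65 CPM in the clones and 0.452 CPM in WT, and GATA6 averaged 1.33 CPM and 0.502 CPM. SOX17, near the level of 3 counts, averaged 0.274 CPM in the clones and 0.172 CPM in WT. The 5 stem cell markers summed to 5696 to 5866 CPM in the clones and 4943 to 5082 CPM in WT. Markers of blood and immune cells, which use the IRAK4 pathway heavily, summed to 0.211 to 0.912 CPM in the H9 clones and 0.128 to 0.757 CPM in H9 WT. The part of these markers in the loss of PUS7L and IRAK4 was not tested.

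In H1, 3 of the 4 neural markers had lower means in the clone, as PUS7L and IRAK4 did. PAX6 averaged 2.63 ± 0.854 CPM in clone 1-10 and 5.89 ± 1.02 CPM in H1 WT (SD, n = 3 each), SOX1 averaged 1.31 CPM in clone 1-10 and 2.38 CPM in WT, and MAP2 averaged 37.8 ± 3.91 CPM in clone 1-10 and 54.9 ± 5.15 CPM in WT. TUBB3 averaged 327 CPM in clone 1-10 and 311 CPM in H1 WT, so that the sums overlapped at 343 to 394 CPM in clone 1-10 and 354 to 386 CPM in WT. The fibroblast markers summed to 199.6 to 272 CPM in clone 1-10 and 262 to 287 CPM in H1 WT, with lower means in the clone for COL1A1, COL1A2 and PDGFRB. The endoderm markers summed to 3.71 to 5.87 CPM in clone 1-10 and 4.75 to 7.97 CPM in WT. Each of them had a lower mean in the clone, though FOXA2 was nearly equal at 3.91 CPM in clone 1-10 and 3.95 CPM in WT. The stem cell markers summed to 6852 to 7307 CPM in clone 1-10 and 6199.6 to 6653 CPM in WT. Blood and immune markers summed to 0.420 to 1.66 CPM in clone 1-10 and 0.432 to 2.71 CPM in H1 WT. The part of these markers in the lower PUS7L and IRAK4 of clone 1-10 was not tested.

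The tested genes around the pair still had RNA in the H9 clones, some of them at a lower level. The 10 genes in the tables on each side of the 3 genes, in RefSeq order, were taken as neighbours, and 16 of these 20 could be tested. The nearest 5 before PUS7L are ZCRB1, MIR7851, PPHLN1, PRICKLE1 and ADAMTS20, and the nearest 5 after TWF1 are TMEM117, NELL2, DBX2, RACGAP1P and PLEKHA8P1, of which MIR7851, DBX2 and RACGAP1P were not tested. In the H9 clones 4 of 16 (25%) were called lower by edgeR, beside 15.9% of all tested genes called lower and 30.6% called in either direction, and the median log2 fold change of the neighbours was -0.07. On the near side of PUS7L, ADAMTS20, a secreted metalloprotease, averaged 16.1 ± 1.39 CPM in the clones (SD, n = 6) and 18.1 ± 1.07 CPM in H9 WT (SD, n = 3), with a log2 fold change of -0.16 (edgeR, Benjamini-Hochberg adjusted p = 0.14). On the far side of TWF1, TMEM117, a membrane protein, averaged 2.07 ± 0.243 CPM in the clones and 2.33 ± 0.142 CPM in H9 WT (edgeR, Benjamini-Hochberg adjusted p = 0.583). The genes called were GXYLT1, which adds xylose to Notch receptors (log2 fold change -0.44), PRICKLE1, a planar polarity protein (-0.32), ZCRB1, an RNA-binding protein (-0.24), and NELL2, a secreted neural protein (-0.20). GXYLT1, with the lowest clone to WT fold of the tested neighbours at 0.737, still averaged 44.1 ± 3.50 CPM in the clones, against 59.9 ± 7.53 CPM in H9 WT. The ZCRB1 call had an adjusted p of 0.0192 in edgeR and up to 0.138 over the alternatives.

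In H1 clone 1-10, 3 of the 16 tested neighbours (18.8%) were called, beside 12.3% of all tested genes. PRICKLE1 rose by a log2 fold change of 0.46 and CNTN1, a neural cell adhesion protein, by 0.28, while ADAMTS20 fell by 0.42. PRICKLE1 averaged 81.8 ± 2.81 CPM in clone 1-10 and 59.0 ± 5.14 CPM in H1 WT (SD, n = 3 each, edgeR, Benjamini-Hochberg adjusted p = 8.54e-06), the opposite direction to its change in the H9 clones, though the difference between the lines was not tested. The adjusted p of CNTN1 ran up to 0.113 and that of ADAMTS20 up to 0.125 over the alternatives, and the count of neighbours called was 1 without H1 WT replicate 3 and 6 without clone replicate 2.

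**Figure D4:**
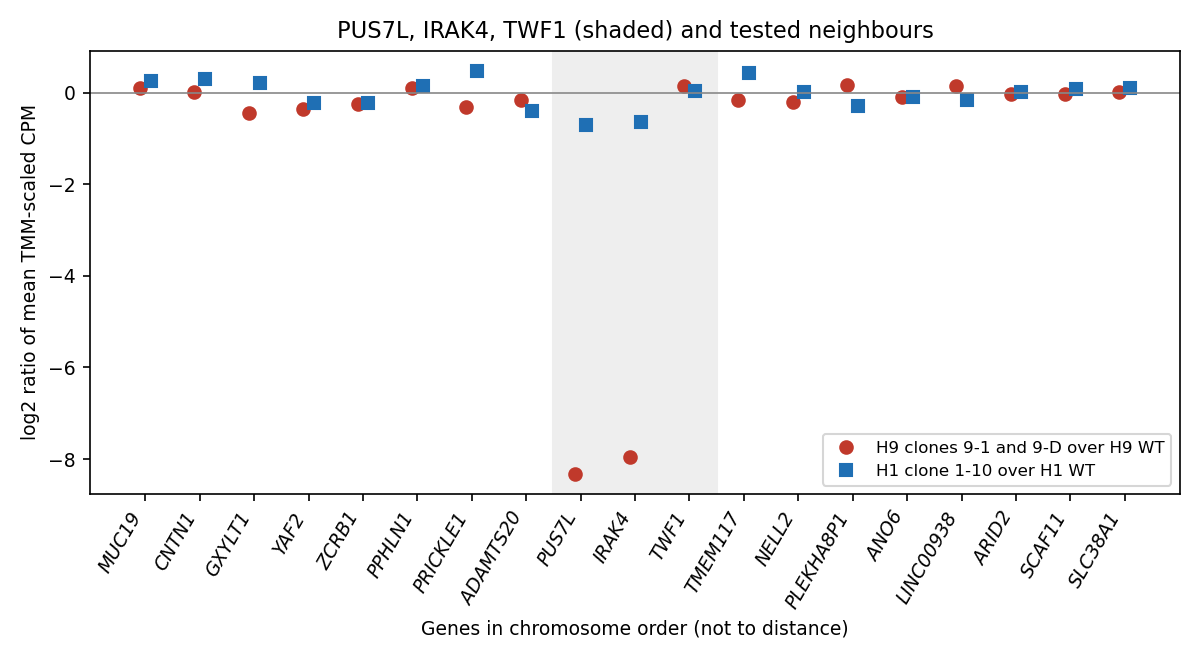
Log2 ratio of mean TMM-scaled CPM, knockout over WT, for PUS7L, IRAK4 and TWF1 (shaded) and the 16 tested neighbours in chromosome order, for the H9 clones (circles) and H1 clone 1-10 (squares). PUS7L and IRAK4 drop out of the row in H9, while every other gene in both comparisons lies within 1 log2 unit of no change.

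Few expressed genes in the tables were lost as PUS7L and IRAK4 were. Of 14697 genes with at least 10 counts in each H9 WT library, 7 (0.0476%) had at most 3 counts summed over the 6 H9 clone libraries. They were ZNF667, with 1 count in the clones against 385 counts in H9 WT, PUS7L, ZNF667-AS1 with 0 against 187, IRAK4, LOC100134868 with 0 against 77, ZNF471 with 1 against 73 and CABS1 with 2 against 38. ZNF667 and ZNF471 encode zinc finger proteins, and ZNF667-AS1 is an antisense RNA. PUS7L and IRAK4 stand next to each other, and the other adjacent run among the 7 is ZNF667, ZNF667-AS1 and ZNF471 on chromosome 19. In H1 clone 1-10, ZNF667 had 0 counts against 37 in H1 WT and ZNF667-AS1 had 0 counts against 40. ZNF471 had 31 counts in clone 1-10, against 32 in H1 WT. Without strand, reads of ZNF667 and its antisense partner cannot be told apart where they overlap. That 5 of the 7 stand beside another was looked at after the values were seen. PUS7L and IRAK4 are among these 5 by the choice, since they were picked as adjacent genes lost together.

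Among the 15 replicated libraries, the genes whose log2(CPM + 1) followed PUS7L most closely were NR6A1 and ZNF664, each with a Pearson correlation of 0.990, then DUSP6 (0.987), TAC3 (0.985) and EFNB2 (0.984), out of 15965 genes compared. IRAK4 was the gene ranked 18 for PUS7L, at 0.976. For IRAK4 the closest were CHGA (0.983), LINC00672 and BTBD17 (0.982 each), PCDHGA10 (0.978) and CHD7 (0.977), and PUS7L ranked 6. These correlations describe the order of 5 groups that share libraries and depth, and the points fall into clusters by group. The H9 clone libraries, on which PUS7L and IRAK4 were chosen, are among the 15. The correlation of PUS7L with IRAK4, and that of each with TWF1, therefore follows in part from the choice and is no separate evidence. Each of these 10 genes still had RNA in the H9 clones, the lowest being LINC00672 with 0.888 CPM in clone 9-D. Reads of PCDHGA10 can be shared with other protocadherins of its cluster. NR6A1, for example, averaged 219 CPM over clone 9-1 and 216 CPM over clone 9-D, against 329 CPM in H9 WT. TWF1 correlated with PUS7L at -0.11 and with IRAK4 at -0.17, and its closest genes were ZMYM4 (0.914), ZNF106 (0.875), FAM199X (0.861), SMARCAD1 (0.837) and SLC4A5 (0.830).

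The signalling partners of IRAK4 were followed through 23 genes of the MyD88 pathway, all of them tested. In the H9 clones 9 of the 23 (39.1%) were called, 6 higher and 3 lower, beside 30.6% of all tested genes, with a median log2 fold change of 0.03. IRAK1, the kinase that IRAK4 phosphorylates, averaged 39.1 ± 2.16 CPM in the clones (SD, n = 6) and 30.5 ± 1.53 CPM in H9 WT (SD, n = 3), a rise of 0.36 on the log2 scale (edgeR, Benjamini-Hochberg adjusted p = 8.7e-05). MYD88, the adaptor that recruits IRAK4, rose by 0.28 (48.7 ± 2.33 CPM in the clones and 40.1 ± 3.004 CPM in H9 WT). NFKB1, an NF-kappa-B subunit precursor, fell by 0.45, and TAB1, a partner of the kinase MAP3K7, fell by 0.22. The IRAK1, MYD88 and NFKB1 calls held under every alternative tried. The count of 9 was 5 without H9 WT replicate 1 and 5 without H9 WT replicate 2, and it ran up to 10 with another library left out. In clone 1-10, 2 of the 23 (8.70%) were called, both higher, beside 12.3% of all tested genes called and 5.01% called higher, with a median of 0.04. They were MYD88, at 46.0 ± 2.08 CPM in the clone and 38.1 ± 2.21 CPM in H1 WT (edgeR, Benjamini-Hochberg adjusted p = 0.0152), and PELI1, a ubiquitin ligase of the pathway, with a log2 fold change of 0.23. This count was 1 without H1 WT replicate 1 or 3 and without clone replicate 1 or 3, and it ran up to 3 with another library left out. IRAK1 in H1 had a log2 fold change of 0.21 (edgeR, Benjamini-Hochberg adjusted p = 0.0706). It passed in 4 of 11 alternatives, with an adjusted p from 0.00655 to 0.479. The H1 calls of MYD88 and PELI1 were each lost in 3 of 11, with an adjusted p up to 0.0935 and 0.115.

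Of 15 receptors that signal through MYD88, 4 were expressed enough to be tested in H9 and 3 in H1. In the H9 clones 1 of the 4 (25%) was called, beside 15.9% of all tested genes called lower and 30.6% called either way. In clone 1-10, 0 of the 3 were called, beside 12.3% of all tested genes. IL1RAP, the accessory chain of the interleukin-1 receptor, fell in the H9 clones to 2.68 ± 0.528 CPM (SD, n = 6), against 5.57 ± 0.267 CPM in H9 WT (SD, n = 3), by 1.05 on the log2 scale (SE 0.164, edgeR, Benjamini-Hochberg adjusted p = 3.83e-06), and it kept that call under every alternative. TLR2, TLR5 and IL1R1 had log2 fold changes of 0.14, 0.05 and -0.40 and did not pass. In clone 1-10 IL1RAP had a log2 fold change of -0.36 (adjusted p = 0.2), TLR2 one of -0.31 and TLR4 one of -1.10 (adjusted p = 0.077, unadjusted p = 0.012 in the edgeR fit), none past the adjusted threshold in edgeR or DESeq2, while 1 receptor passed without clone replicate 1.

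Among 17 target genes of NF-kappa-B, 13 were tested in each line. In the H9 clones 5 of the 13 (38.5%) were called, all lower, beside 15.9% of all tested genes called lower and 30.6% called either way, with a median log2 fold change of -0.15. NFKB2, itself an NF-kappa-B subunit, averaged 18.3 ± 0.955 CPM in the clones (SD, n = 6) and 30.5 ± 3.62 CPM in H9 WT (SD, n = 3, edgeR, Benjamini-Hochberg adjusted p = 1.06e-09). IER3, an early response gene, fell by 0.31 and NFKBIE, an inhibitor of NF-kappa-B, fell by 0.37. The call of TNFAIP2, a gene induced by tumour necrosis factor, was marginal (log2 fold change -0.19, Benjamini-Hochberg adjusted p = 0.0433 in edgeR, up to 0.168 over the alternatives). The count of 5 became 3 without H9 WT replicate 1 or 2, without clone 9-1 replicate 2 and without clone 9-D replicate 2. In clone 1-10, 2 of 13 (15.4%) were called, both lower, beside 7.25% of all tested genes called lower and 12.3% called either way, with a median of -0.20. TNFAIP2 averaged 12.9 ± 1.31 CPM in clone 1-10 and 20.3 ± 1.36 CPM in H1 WT (SD, n = 3 each, edgeR, Benjamini-Hochberg adjusted p = 4.79e-05), and ICAM1, an adhesion molecule, fell by 0.67. This count was 1 without H1 WT replicate 3 and without clone replicate 1, and it ran up to 3 with another library left out.

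The other 12 pseudouridine synthases were all tested. PUS7, the closest relative, averaged 77.4 ± 4.403 CPM in the H9 clones (SD, n = 6) and 76.1 ± 1.69 CPM in H9 WT (SD, n = 3), with a log2 fold change of 0.03 (edgeR, Benjamini-Hochberg adjusted p = 0.766). In clone 1-10 it averaged 86.8 ± 3.56 CPM, against 87.9 ± 9.33 CPM in H1 WT. In H9, DKC1, the synthase of the box H/ACA complex, rose by 0.18 and TRUB1 by 0.19, 2 of 12 (16.7%), beside 14.7% of all tested genes called higher and 30.6% called either way, with a median of 0.12. In clone 1-10, DKC1 rose by 0.20 and PUS3, a transfer RNA enzyme, by 0.28, again 2 of 12, beside 5.01% called higher and 12.3% called either way, with a median of 0.05. The H9 count was 0 without H9 WT replicate 1 and without replicate 3. The H1 count was 0 without H1 WT replicate 3 and without clone replicate 1, and 1 without H1 WT replicate 1 or 2 and without clone replicate 2.

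For TWF1, 16 genes of actin monomer binding and filament capping were followed, of which 15 were tested. TWF2, its paralogue, averaged 60.6 ± 3.86 CPM in the H9 clones (SD, n = 6) and 60.3 ± 0.294 CPM in H9 WT (SD, n = 3), and 72.3 ± 5.95 CPM in clone 1-10 against 72.7 ± 1.95 CPM in H1 WT (SD, n = 3 each). In the H9 clones 7 of the 15 (46.7%) were called, 6 higher and 1 lower, beside 30.6% of all tested genes called and 14.7% called higher, with a median log2 fold change of 0.12. The profilins PFN1 and PFN2, which bind actin monomers, rose by 0.22 and 0.20, CAP1, a cyclase-associated protein, rose by 0.19 and its paralogue CAP2 fell by 0.27. In clone 1-10 PFN1 rose by 0.18 and CFL1, cofilin, by 0.16, 2 of 15 (13.3%), beside 12.3% of all tested genes called and 5.01% called higher, with a median of 0.08. The H9 count was 4 without H9 WT replicate 1, 3 without H9 WT replicate 3 and 4 without clone 9-1 replicate 1. It ran up to 8 with another library left out. The H1 count was 0 without H1 WT replicate 3 and 1 without H1 WT replicate 1. Over all tested genes the median log2 fold change was 0.00 in H1 and -0.01 in H9.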

How the data were processed

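Read counts per gene symbol were deposited by the authors for 18 libraries. The submitters' processing notes name STAR, featureCounts, DESeq2 and the genome build hg19, with versions not given in the sources used here. The authors' deposited tables also hold log2 fold changes, p-values and, as a score per gene, the standard error of the fold change, per the file headers. Columns named by line and number alone were taken as WT replicates, and the control column as the single WT library.

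Counts were tested with edgeR 4.0.16 in R 4.3.3 (quasi-likelihood F test, TMM scaling, filterByExpr, Benjamini-Hochberg adjustment, threshold 0.05), in H1 over 6 libraries and in H9 over 9 libraries in 3 groups. Each SE was computed as the size of the log2 change over the root of its F value. DESeq2 1.42.0 and other scaling, filter and sample choices were alternatives. The procedure was tested on simulated data. Between replicates chi-square per gene was 1.80 to 5.61 over 15 pairs, so no library was a copy of another in its replicated group. The single libraries and pairs across groups were not compared in this way. Intervals are exact 95% counting intervals of ratios scaled by TMM and, since reads were not marked by molecule, cover counting error only. Of 27130 symbols 25673 matched RefSeq, used for gene order. GRCh38 windows were used for sequence, and no hg19 coordinates are given.

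The genes, lists and tests were chosen with earlier results of these data known. Named are PUS7L, IRAK4, TWF1, ZNF263 and stem cell markers. Named too are the 5 nearest neighbours on each side, at most 4 called genes per list by adjusted p, PUS7, IRAK1, MYD88 and TWF2, the 5 best-correlated genes of each of the 3, and genes lost in H9. GXYLT1, CNTN1, receptors that did not pass, and ZNF667 and ZNF471 in H1, were added after their values were seen.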

Additional observations from a re-analysis of the deposited data

How the results depend on the processing

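PUS7L kept its H1 call under all alternatives, with log2 fold changes of -0.89 to -0.59 when 1 library was left out and -0.70 with a replicate block (adjusted p = 2.07e-05, edgeR). IRAK4 was -0.66 in DESeq2 and -0.67 in the fit of 15 libraries, both past the threshold no more, -0.80 to -0.52 when 1 library was left out, and -0.68 with the block (adjusted p = 0.0211, edgeR), and the cause was not tested. TWF1 ran from -0.032 to 0.12 in H1, below 0 without H1 WT replicate 2 (-0.032) or clone replicate 1 (-0.023), and from -0.13 to -0.027 between the H9 clones. The H9 ratios of mean CPM, clones over WT, were 0.00152 to 0.00375 for PUS7L (0.00312 with all libraries), 0 to 0.00481 for IRAK4 and 1.04 to 1.14 for TWF1 when 1 library was left out. Genes called in H1 were 1827, against 1210 in DESeq2, 2926 with the replicate block and 949 to 2100 when 1 library was left out, with 949 without H1 WT replicate 3 and 1102 without clone replicate 1. In H9 they were 3659 to 4901, and 25 to 53 between the H9 clones. Same-numbered libraries correlated at 0.0357 to 0.119 in H1 and -0.0308 to 0.0633 in H9, not over 0.1 in every pair, and the labels name no shared batch, so the numbers were not taken as pairs, although 13 of 18 H9 comparisons and 4 of 6 in H1 were best with their own number among 3, a hint from the data and not the design. Alternatives for the lists and named genes were chosen after seeing the data. In H1, DESeq2 called 1 neighbour, 1 NF-kappa-B target and 1 pseudouridine synthase, and the block 4 MyD88 genes, 1 receptor and 4 actin genes. In H9, DESeq2 and the fit of 15 libraries each called 3 NF-kappa-B targets. With 1 library left out, H1 counts were 1 to 6 neighbours, 1 to 3 MyD88 genes, 0 to 1 receptors, 1 to 3 NF-kappa-B targets, 0 to 2 synthases and 0 to 2 actin genes, and H9 counts were 3 to 4 neighbours, 5 to 10 MyD88 genes, 1 receptor, 3 to 5 targets, 0 to 2 synthases and 3 to 8 actin genes. The number of all genes called moved between settings as well. Nothing about a list is therefore read from shifts in its count, here or in the list paragraphs above. Of 41 called neighbour and list genes and ZNF263 values, 15 kept their call under all alternatives. With 1 library left out, signs turned for PUS7 (-0.097 to 0.056), TWF2 (-0.085 to 0.019) and NELL2 (-0.066 to 0.023) in H1 and for TWF2 in H9 (-0.014 to 0.039), none of them called. IRAK4 had 29 to 82 counts per replicated H1 library.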
